A study of Homo sapiens with 13 samples.

Results

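Axon guidance receptors and ligands were followed in 2 small cell lung cancer lines treated with FHD-286, as 48 genes of 10 families picked by gene symbol from 56831 rows in each table of TPM, transcripts per 1000000 transcripts. Every one of the 48 had 1 row in both tables. They comprised 7 EphA receptors, 5 EphB receptors, 5 ephrin-A and 2 ephrin-B ligands, 3 Robo receptors, 3 Slit ligands, 2 netrin ligands, 6 netrin receptors, 8 semaphorin ligands and 7 semaphorin receptors. FHD-286 is an allosteric inhibitor of the SMARCA4 and SMARCA2 ATPases, the motors of the SWI/SNF chromatin remodelling complexes. H82 is a line of the NEUROD1-high neuroendocrine subtype and H146 a line of a different neuroendocrine subtype, both labelled WT. Each line was kept untreated (3 libraries of H82 and 3 of H146) or given 100 nM FHD-286 for 14 days with the drug renewed throughout (3 libraries of H82 and 4 of H146). The comparisons asked which guidance genes were higher or lower after treatment in each line, and whether the response differed between the lines.

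Axon guidance proteins steer growing neurites: ligands on a cell surface or in the matrix bind receptors on the growth cone, which then turns, stalls or advances. Ephrins are membrane-bound and bind Eph receptor tyrosine kinases on touching cells, Slits bind Robo receptors, netrins attract through DCC and neogenin and repel through UNC5 receptors, and semaphorins signal through plexins, with neuropilins as co-receptors for the secreted class. Neuroendocrine cells and their tumours express many of these genes, and the same proteins act in cell adhesion and migration outside the nervous system.

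Every library summed to 1000000 TPM over all rows, so the number of reads behind a value was not known and no counting interval could be given. TPM is per transcript length, and levels of different genes within a library can therefore be set side by side. The H82 table held 21227 to 21772 genes at 1 TPM or more in the untreated libraries and 15554 to 16633 in the treated libraries, against 17476 to 17965 and 18778 to 19309 in H146. *NEUROD1* was at 231, 234 and 224 TPM in untreated H82 and at most 0.521 TPM in untreated H146. *EPCAM*, an epithelial adhesion gene, was at 0.837 to 1.65 TPM in untreated H82 and at 676 to 708 TPM in untreated H146. The endothelial gene *CDH5* did not exceed 0.0697 TPM in any of the 13 libraries, and the leukocyte gene *PTPRC* reached 0.402 TPM in H82 and 6.75 TPM in H146. Each is 1 gene of a list. The 8 endothelial markers together summed to 3.0 to 22.8 TPM in H82 libraries and 33.7 to 58.8 TPM in H146 libraries. The 10 immune markers summed to 2.49 to 8.98 TPM in H82 and 8.10 to 24.4 TPM in H146. H82 treated replicate 2 differed from the other 2 treated H82 libraries in some markers: the 10 epithelial markers summed to 175 TPM there, against 29.4 and 13.9 TPM, and *INSM1*, a neuroendocrine transcription factor, was at 296 TPM against 32.0 and 34.0 TPM. Over all tested genes, treated replicate 1 was the least like the others. The SD of the log2 difference was 0.79 and 0.73 between it and replicates 2 and 3, and 0.50 between replicates 2 and 3. *SMARCA4* was at 80.0, 61.8 and 80.0 TPM in untreated and 51.0, 93.0 and 106 TPM in treated H82, and at 99.5, 109 and 89.5 and 158, 157, 174 and 172 TPM in H146. Since the drug inhibits the protein, its RNA does not check the labels. In such bulk libraries, fewer cells of a kind and less RNA per cell cannot be told apart.

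Differences were tested with limma on log2(TPM + 1) in each line over all genes that reached 1 TPM in at least 3 libraries, with Benjamini-Hochberg adjustment over all of them and a threshold of 0.05. Fold changes below are log2 values on that scale with their standard errors (SE), which understate the change of genes of low level. Over the 19770 genes tested in H82 the median log2 fold change was −0.56, and over the 19585 tested in H146 it was 0.25, so that a gene at the middle of its table was lower after treatment in H82 and higher in H146. After rescaling by the median of ratios, the medians were −0.14 and −0.02. Values after this rescaling are given beside those of single members where they change a call.

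In H82, 13 of the 48 guidance genes stayed below the level filter and 35 were tested, of which 7 were higher and 16 lower after FHD-286. These were 20.0% and 45.7% of the members tested, beside 13.1% and 45.5% of all genes tested, so the share of lower genes was near that of all genes. Rescaled by the median of ratios, 11 were higher and 10 lower (31.4% and 28.6%), beside 24.2% and 32.9% of all genes. The median log2 fold change of the 35 was −0.52, close to that of all genes. Among the 7 higher genes, *EFNA3* and *EFNA4* passed the filter only through the treated libraries, and among the 16 lower genes *EFNA2*, *DCC* and *SEMA5A* passed it only through the untreated libraries. Treated and untreated libraries did not overlap for 26 of the 35 members, against 67.8% of all tested genes. Without treated replicate 2, 32 members could be tested, of which 5 were higher and 16 lower, beside 1738 higher and 8187 lower of all 19237 genes. *EFNA3* and *EFNA4* could not be tested when any treated library was left out, because the filter needs 3 libraries at 1 TPM. Without untreated replicate 1 or 3, 15 of 32 members passed, 9 of them lower, beside 4291 lower of all 16364 genes and 4399 lower of 16375. By the same filter, *EFNA2*, *DCC* and *SEMA5A* could not be tested when any untreated library was left out. Without treated replicate 3 only 4 were higher, with *EFNA3* and *EFNA4* not tested, beside 1829 of all 19206 genes. Treated and untreated libraries did not overlap for any of the 23 members called in H82.

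In H146, 9 members stayed below the filter and 39 were tested, of which 18 were higher and 8 lower. These were 46.2% and 20.5% of the members tested, beside 32.5% and 15.5% of all genes tested. Rescaled in this way, 15 were higher and 10 lower (38.5% and 25.6%), beside 21.3% and 25.1%. The median log2 fold change of the 39 was 0.38, against 0.25 over all genes. *NTN1* alone among the 18 higher genes passed the filter only through the treated libraries. Treated and untreated libraries did not overlap for 28 of the 39 members, against 52.9% of all tested genes, and for each of the 26 that were called. Without untreated replicate 2, 5 were lower, beside 1942 of all 18948 genes.

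**Figure D1:**
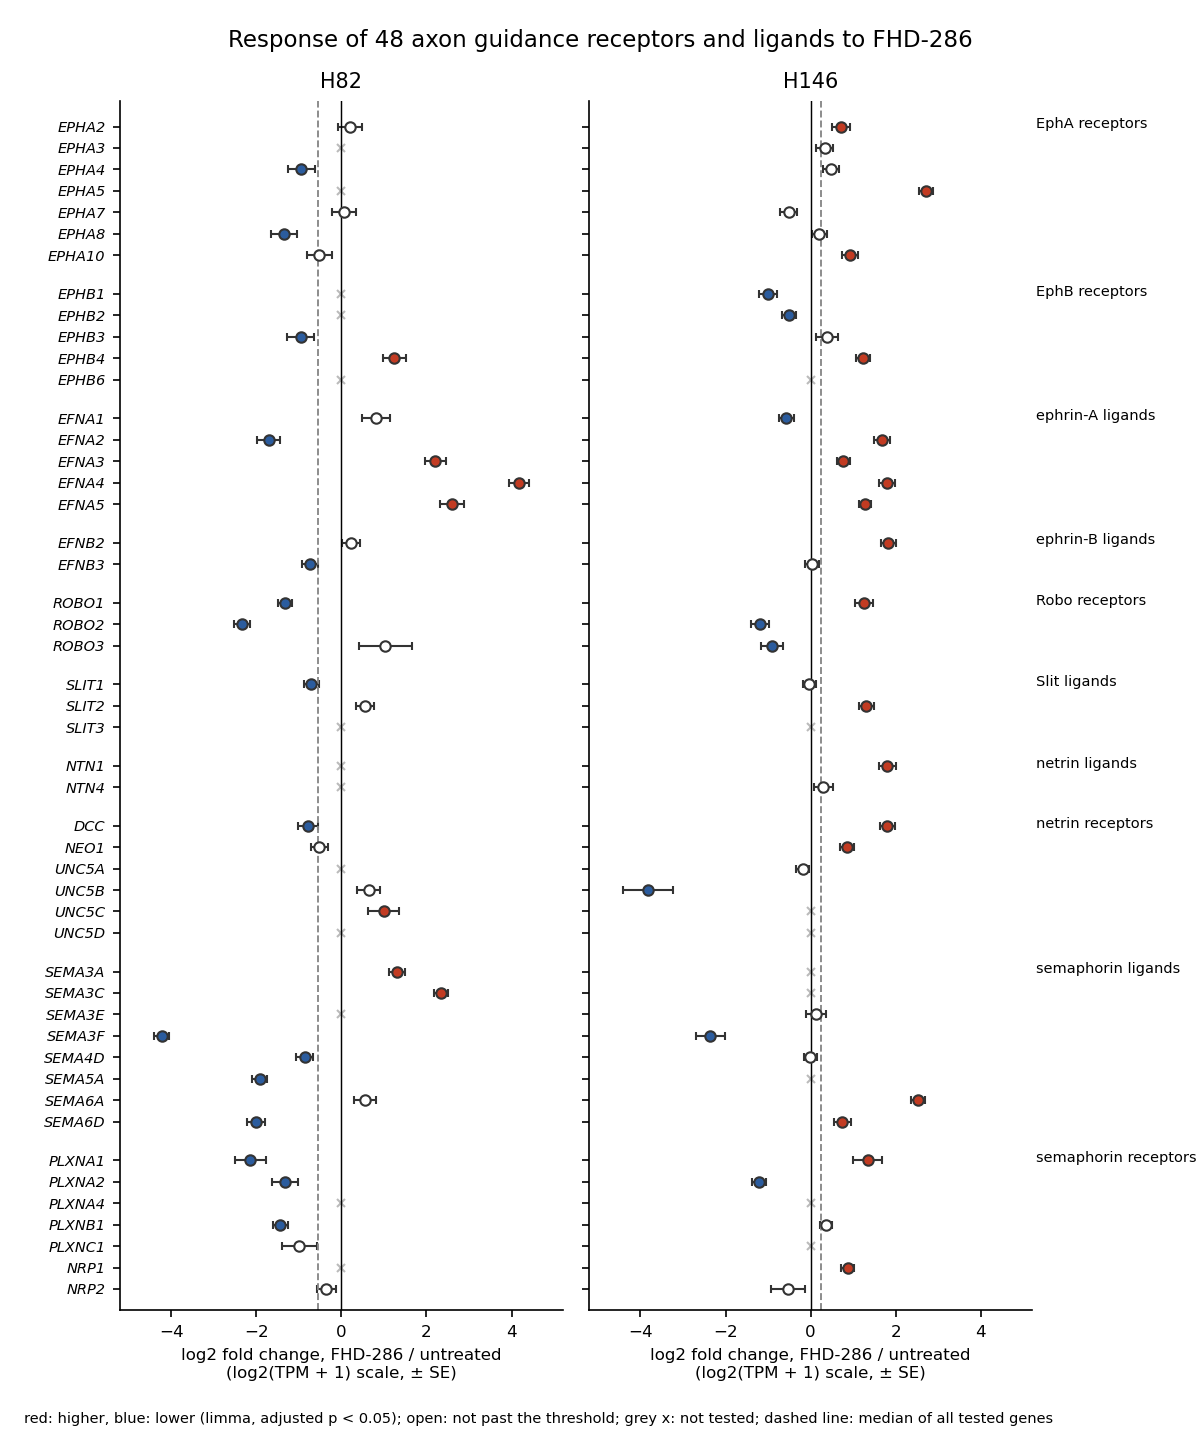
Log2 fold change (FHD-286 against untreated, log2(TPM + 1) scale, x axis) with its standard error for each of the 48 guidance genes (y axis, grouped by family) in H82 (left) and H146 (right). Red points were higher and blue points lower past the adjusted threshold, open points did not pass it, grey crosses were not tested, and the dashed line is the median of all tested genes (−0.56 and 0.25). *EFNA3*, *EFNA4*, *EFNA5* and *EPHB4* lie to the right in both panels, and *SEMA3F*, *ROBO2* and *PLXNA2* to the left in both.

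Of the members, 12 passed the threshold in both lines. *EPHB4*, *EFNA3*, *EFNA4* and *EFNA5* were higher in both, and *ROBO2*, *SEMA3F* and *PLXNA2* were lower in both. The remaining 5, *EFNA2*, *ROBO1*, *DCC*, *SEMA6D* and *PLXNA1*, were lower in H82 and higher in H146. In each line alone, 13.1% of all genes tested were higher and 45.5% lower in H82, and 32.5% and 15.5% in H146. The share of all genes called in both lines was not computed, so these counts are not set against one. After that rescaling, *EFNA3* no longer passed in H146 (adjusted p = 0.0541), *DCC* no longer passed in H82 (adjusted p = 0.0771) and *SEMA6D* no longer passed in H146 (adjusted p = 0.0510), while the other 9 kept both calls. With quantile normalization, *EFNA2* and *PLXNA2* no longer passed in H82 (adjusted p = 0.115 and 0.483), nor did *DCC*, whose direction turned (log2 0.37, adjusted p = 0.26).

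The RefSeq promoter table held windows for 40 of the 48 genes, and those of 5 genes that moved the same way in both lines are shown because the data bear on their expression. Each is the stretch before the annotated start on GRCh38, on the gene's strand from 5′ to 3′ and stopping before the first annotated exon base, in lower case with any match to the searched letters in capitals. *EFNA4* (chr1:155063490-155063736, plus strand), *EFNA5* (chr5:107670938-107671187, minus strand) and *EPHB4* (chr7:100827524-100827773, minus strand) were higher, and *ROBO2* (chr3:76310630-76310879, plus strand, the upstream of its 2 starts in the table, although GENCODE v44 begins the gene further upstream, at 75906695) and *SEMA3F* (chr3:50154808-50155044, plus strand, the most upstream of its 3 starts in the table) were lower:
EFNA4: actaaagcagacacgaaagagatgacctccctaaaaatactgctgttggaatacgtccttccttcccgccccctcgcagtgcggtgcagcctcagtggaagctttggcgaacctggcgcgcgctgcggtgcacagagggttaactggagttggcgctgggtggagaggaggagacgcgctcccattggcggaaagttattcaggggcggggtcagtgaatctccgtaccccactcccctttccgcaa
EFNA5: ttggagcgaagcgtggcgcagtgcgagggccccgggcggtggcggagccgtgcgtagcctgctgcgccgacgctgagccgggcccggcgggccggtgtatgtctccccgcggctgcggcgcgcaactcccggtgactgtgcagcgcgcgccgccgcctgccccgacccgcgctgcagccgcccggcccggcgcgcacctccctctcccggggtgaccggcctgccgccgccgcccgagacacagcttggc
EPHB4: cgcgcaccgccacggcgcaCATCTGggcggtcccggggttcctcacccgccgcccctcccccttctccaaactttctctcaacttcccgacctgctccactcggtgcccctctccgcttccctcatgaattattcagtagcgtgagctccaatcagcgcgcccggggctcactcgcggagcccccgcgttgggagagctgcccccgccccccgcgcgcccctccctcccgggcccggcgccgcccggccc
ROBO2: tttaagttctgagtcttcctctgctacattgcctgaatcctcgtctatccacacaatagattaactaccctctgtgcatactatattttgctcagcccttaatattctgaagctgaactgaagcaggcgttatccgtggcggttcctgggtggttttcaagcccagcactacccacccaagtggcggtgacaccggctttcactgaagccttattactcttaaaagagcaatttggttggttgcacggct
SEMA3F: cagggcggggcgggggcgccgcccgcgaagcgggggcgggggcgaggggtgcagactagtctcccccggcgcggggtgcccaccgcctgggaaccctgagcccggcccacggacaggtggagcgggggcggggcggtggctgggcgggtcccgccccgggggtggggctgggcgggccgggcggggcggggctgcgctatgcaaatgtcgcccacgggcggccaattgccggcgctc
The letters searched on both strands were 2 E-box forms, CAGATG, which reads CATCTG on the other strand, and the palindrome CAGCTG, besides the TEAD letters GGAATG, which read CATTCC on the other strand, and the AP-1 letters TGAGTCA, which read TGACTCA there, over the 250 bases before each start. Of the windows shown only that of *EPHB4* held a match, CATCTG beginning 231 bases before the start, while another window of *SEMA3F* (chr3:50155074-50155323) held GGAATG beginning 63 bases before its start. The 40 members had 58 windows, and members are counted below as genes with a match in any window, so these counts are not shares of windows. CAGATG was in 12.2% of the 35116 windows in the table and in those of 2 of the 40 members (*EPHB4* and *PLXNA4*). CAGCTG was in 14.0% of all windows and in those of 5 members, GGAATG in 11.9% and 3 members (*EPHA2*, *PLXNB1* and *SEMA3F*), and the AP-1 letters in 4.20% and none of the 40. A match is a description of letters and no match says only that they are absent from this window. The members' windows had a median GC content of 67.8%, against 58.0% for all windows.

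Ephrin-A ligands, which are anchored to the membrane by a lipid and bind mainly EphA receptors, were the family with the largest relative rise in summed level in H82. Of the 5, 3 were higher and 1 lower in H82, and 4 were higher and 1 lower in H146. The counts with the median of ratios were 4 and 1 in H82 and 3 and 1 in H146. The summed TPM of the 5 was 7.86, 8.47 and 9.37 in untreated and 47.9, 51.6 and 46.6 in treated H82, a 5.69-fold rise of the mean (8.0-fold with the median of ratios). In H146 it went from 25.2, 29.4 and 28.2 to 59.8, 60.7, 60.5 and 61.0, or 2.19-fold (1.76-fold with the median of ratios). Groups did not overlap in either line.

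*EFNA4* was the member with the largest rise in H82, with 0.304, 0 and 0.162 TPM untreated and 23.8, 21.3 and 14.9 TPM treated (log2 4.17 ± 0.24, adjusted p = 0.000101). It made up at most 3.86% of the ephrin-A sum in untreated and 32.1 to 49.7% in treated H82 libraries. In H146 it went from 1.60, 0.760 and 1.52 to 6.79, 5.82, 7.39 and 7.53 TPM (log2 1.80 ± 0.20, adjusted p = 0.000251). All treated libraries were above all untreated ones in both lines.

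*EFNA5* was at 1.98, 1.68 and 1.94 TPM in untreated and 10.3, 20.7 and 20.0 TPM in treated H82 (log2 2.59 ± 0.28, adjusted p = 0.000452), where treated replicate 1 was the lowest of the treated. The untreated H146 libraries were at 10.2, 13.4 and 9.35 TPM and the treated at 25.5, 28.3, 28.2 and 28.8 TPM (log2 1.27 ± 0.15, adjusted p = 0.000319). The groups were apart in both lines, and *EFNA5* took the largest share of the ephrin-A sum in treated H146, 42.6 to 47.3%.

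*EFNA3* was at 0.804, 0.543 and 0.643 TPM in untreated and 8.64, 7.05 and 4.74 TPM in treated H82 (log2 2.20 ± 0.24, adjusted p = 0.000476). The H146 libraries were at 6.22, 7.19 and 7.04 TPM untreated and 13.4, 14.8, 10.7 and 10.8 TPM treated (log2 0.77 ± 0.16, adjusted p = 0.00539), with no overlap in either line. *EFNA3*, *EFNA4* and *EFNA1* lie next to each other on chromosome 1 (155078837-155087538, 155063737-155069553 and 155127876-155134899 in GENCODE v44). The annotation holds a read-through gene joining *EFNA4* and *EFNA3* that covers 43.9% of the exonic bases of *EFNA3* and 15.0% of those of *EFNA4*, so reads there could be split between them.

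*EFNA2* moved in opposite directions. It was at 2.42, 4.92 and 4.53 TPM in untreated and 0.504, 0.292 and 0.672 TPM in treated H82 (log2 −1.70 ± 0.27, adjusted p = 0.00175), an 8.09-fold drop of the mean. In H146 it went from 1.93, 2.33 and 2.76 to 10.9, 7.63, 10.1 and 10.2 TPM (log2 1.68 ± 0.18, adjusted p = 0.000216). *EFNA1* also differed: it was lower in H146, from 5.25, 5.71 and 7.50 to 3.25, 4.11, 4.14 and 3.63 TPM (log2 −0.57 ± 0.17, adjusted p = 0.0254), a call lost without untreated replicate 2 or 3 or treated replicate 1 or 4 (adjusted p = 0.0538 to 0.0968), and did not pass in H82, where the groups overlapped (log2 0.82 ± 0.33, adjusted p = 0.0713). It passed in H82 as higher with the median of ratios (adjusted p = 0.0239).

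Ephrin-B ligands, which span the membrane and bind mainly EphB receptors and EPHA4, responded differently in the 2 lines. *EFNB2* was at 9.42, 11.5 and 7.08 TPM in untreated and 30.9, 33.9, 38.4 and 37.6 TPM in treated H146 (log2 1.83 ± 0.17, adjusted p = 0.000128), with the groups apart, and took 14.1 to 17.0% of the family's sum before and 33.6 to 45.9% after treatment. GENCODE v44 lists a long non-coding RNA on the opposite strand that shares 36.4% of its exonic bases, and whether the libraries kept strand is not given in the sources used here. In H82 *EFNB2* stayed between 1.39 and 2.35 TPM in all libraries and did not pass. *EFNB3*, the more abundant ligand in both lines, fell in H82 from 21.5, 17.8 and 21.0 to 12.1, 14.0 and 9.18 TPM (log2 −0.74 ± 0.19, adjusted p = 0.0138), a call that was lost with the median of ratios (log2 −0.28, adjusted p = 0.264), with quantile normalization (log2 −0.25, adjusted p = 0.288) and without untreated replicate 1 or 3 (adjusted p = 0.0656 and 0.0626). In H146 it was at 43.2 to 57.2 TPM untreated and 44.3 to 61.0 TPM treated and did not pass.

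**Figure D2:**
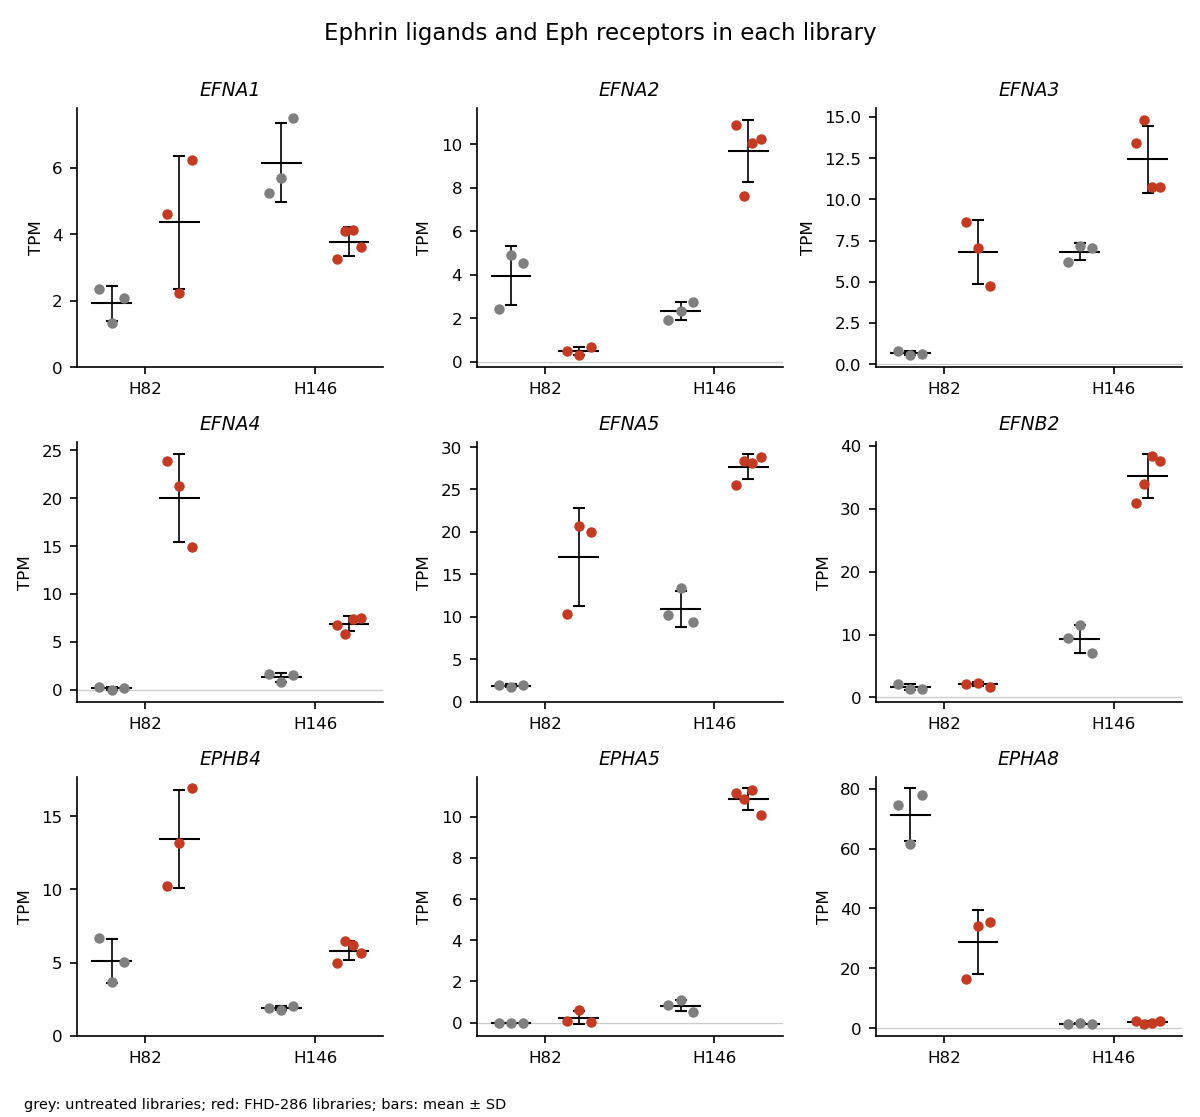
TPM (y axis) of 6 ephrin ligands and 3 Eph receptors in every untreated (grey) and FHD-286 (red) library of H82 and H146 (x axis), with the mean and SD as bars. *EFNA3*, *EFNA4*, *EFNA5* and *EPHB4* have all treated libraries above all untreated ones in both lines, and *EFNA2* is lower in treated H82 and higher in treated H146.

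EphA receptors, kinases that bind ephrin-A ligands, showed 2 lower and 0 higher genes of 5 tested in H82, and 3 higher and 0 lower of 7 in H146. The higher and lower counts were 0 and 1 in H82 and 2 and 1 in H146 with the median of ratios, and 2 and 1 in both lines with quantile normalization. *EPHA8* made up 75.5 to 78.9% of the summed EphA level in untreated H82 and was at 74.5, 61.5 and 78.1 TPM, falling to 16.4, 34.3 and 35.6 TPM (log2 −1.35 ± 0.30, adjusted p = 0.00717). It stayed lower with the median of ratios (log2 −0.87, adjusted p = 0.0321). In H146 it was at 1.39 to 2.28 TPM over all libraries, with overlapping groups. *EPHA4*, which binds ephrins of both classes, was at 7.13, 7.24 and 6.42 TPM untreated and 4.32, 4.28 and 1.52 TPM treated in H82 (log2 −0.94 ± 0.32, adjusted p = 0.0392), a call lost with the median of ratios (adjusted p = 0.223) and without any of the untreated libraries or treated replicate 3 (adjusted p = 0.0559 to 0.112). That call was also lost with quantile normalization (log2 −0.04, adjusted p = 0.921), a pseudocount of 0.1 (adjusted p = 0.0546) and no filter (adjusted p = 0.0726). The summed EphA level fell 2.01-fold in H82 (1.43-fold with the median of ratios).

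In H146 the receptor with the largest rise was *EPHA5*, at 0.874, 1.08 and 0.524 TPM untreated and 11.1, 10.8, 11.3 and 10.1 TPM treated (log2 2.71 ± 0.17, adjusted p = 1.63e-05), the smallest adjusted p of any member in either line. In H82 it was listed at 0 in all 3 untreated libraries and at 0.0607, 0.593 and 0.0519 TPM in the treated, below the filter. *EPHA10*, whose kinase domain is thought inactive, was at 7.39, 7.40 and 7.25 TPM untreated and 13.1, 11.7, 18.4 and 16.9 TPM treated in H146 (log2 0.92 ± 0.18, adjusted p = 0.00357), with the groups apart. *EPHA2* was also higher in H146 (log2 0.70 ± 0.21, adjusted p = 0.0249), but not with the median of ratios (adjusted p = 0.115), nor without any of the untreated libraries or treated replicate 1 (adjusted p = 0.0506 to 0.095). Quantile normalization (adjusted p = 0.105) and no filter (adjusted p = 0.0569) lost this call too. *EPHA7*, the most abundant EphA receptor in untreated H146 (18.1 to 29.6 TPM), was at 14.1 to 18.7 TPM after treatment and did not pass (adjusted p = 0.0524), and it passed as lower with the median of ratios (adjusted p = 0.0038). *EPHA3* did not pass in H146 and did not exceed 0.0895 TPM in H82.

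Among EphB receptors, which bind ephrin-B ligands, *EPHB4* rose in both lines. It was at 6.67, 3.67 and 5.03 TPM in untreated and 10.3, 13.2 and 16.9 TPM in treated H82 (log2 1.24 ± 0.26, adjusted p = 0.00596), and at 1.88, 1.76 and 2.06 and 4.99, 6.49, 6.18 and 5.63 TPM in H146 (log2 1.23 ± 0.16, adjusted p = 0.000541). The groups were apart in both lines, and the difference between the responses was 0.01 ± 0.29 (adjusted p = 0.972). That difference depended on the scaling, at 0.68 (adjusted p = 0.056) with the median of ratios and 0.99 (adjusted p = 0.011) with quantile normalization. *EPHB4* came to 66.3 to 88.1% of the EphB sum in treated H82.

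*EPHB1* was the main EphB receptor of H146, with 82.8 to 88.6% of the sum in untreated libraries, and fell from 66.7, 84.4 and 44.2 to 34.1, 36.5, 27.2 and 27.2 TPM (log2 −1.0 ± 0.22, adjusted p = 0.00664). *EPHB2* also fell there (log2 −0.50 ± 0.17, adjusted p = 0.0365), a call lost with no filter (adjusted p = 0.0709) and without any of the untreated libraries or treated replicate 3 or 4 (adjusted p = 0.0623 to 0.152). The summed EphB level was 1.69-fold lower in treated H146 and 1.73-fold higher in treated H82, and neither direction changed with the median of ratios. *EPHB3* fell in H82 from 4.66, 3.78 and 5.24 to 3.43, 1.5 and 1.07 TPM (log2 −0.96 ± 0.32, adjusted p = 0.0343), a call lost with the median of ratios (adjusted p = 0.182), with no filter (adjusted p = 0.0737) and without any of the untreated libraries or treated replicate 2 or 3 (adjusted p = 0.0716 to 0.123), and its direction turned with quantile normalization (log2 0.04). *EPHB1* and *EPHB2* were below the filter in H82, where they reached 1.28 and 2.95 TPM in treated replicate 2 and at most 0.138 and 0.622 TPM in the other libraries. *EPHB6*, a receptor without kinase activity, was below the filter in both lines, at up to 1.19 TPM in treated H82.

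The Robo receptors, which bind Slit ligands and repel axons from the midline, parted in H146 and fell together in H82 for *ROBO1* and *ROBO2*. *ROBO2* was at 30.4, 35.1 and 29.9 TPM in untreated and 4.45, 6.53 and 5.63 TPM in treated H82 (log2 −2.34 ± 0.18, adjusted p = 0.000168), a 5.75-fold drop of the mean. In H146 it went from 15.0, 15.3 and 9.55 to 5.45, 6.86, 4.34 and 4.26 TPM (log2 −1.19 ± 0.22, adjusted p = 0.00313). All treated libraries were below all untreated libraries in both lines.

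*ROBO1* was at 59.5, 59.9 and 60.9 TPM in untreated and 19.1, 28.4 and 23.4 TPM in treated H82 (log2 −1.33 ± 0.17, adjusted p = 0.000779). In H146 it rose from 72.1, 81.9 and 42.5 to 139, 135, 173 and 163 TPM (log2 1.25 ± 0.22, adjusted p = 0.00235), and it came to 86.6 to 94.1% of the Robo sum in the treated libraries. Neither pair of groups overlapped. The summed Robo level was 2.66-fold lower in treated H82 (1.89-fold with the median of ratios) and 1.71-fold higher in treated H146 (1.38-fold).

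*ROBO3*, a Robo that counters Slit repulsion in commissural axons, fell in H146 (log2 −0.91 ± 0.26, adjusted p = 0.0207), a call lost without any of the untreated libraries (adjusted p = 0.0517 to 0.0719), and did not pass in H82, where treated replicate 1 was at 13.6 TPM and the other treated libraries at 1.54 and 2.65 TPM. Of the Slit ligands, *SLIT2* rose in H146 from 2.22, 2.27 and 1.58 to 7.25, 5.34, 6.64 and 6.76 TPM (log2 1.31 ± 0.17, adjusted p = 0.000635) with the groups apart. In H82 it was at 0.987, 0.908 and 0.696 TPM untreated and 1.69, 2.26 and 1.30 TPM treated, which did not pass (adjusted p = 0.0568) but did with the median of ratios (adjusted p = 0.0150). There *SLIT2* passed the filter only through the treated libraries and could not be tested when any of them was left out. *SLIT1*, the more abundant Slit in both lines, fell in H82 from 6.11, 5.93 and 6.16 to 3.78, 3.02 and 3.19 TPM (log2 −0.71 ± 0.18, adjusted p = 0.012), a call lost with the median of ratios (adjusted p = 0.202) and without untreated replicate 1 or 3 (adjusted p = 0.0603 and 0.0606), and turned in direction with quantile normalization (log2 0.22). It did not pass in H146 (log2 −0.03 ± 0.15). *SLIT3* was below the filter in both lines, at no more than 0.287 TPM. The summed Slit level was 1.37-fold lower in treated H82, and this direction turned with the median of ratios (1.03-fold higher).

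Netrin ligands were low in both lines. *NTN1*, the secreted guidance cue that DCC and UNC5 receptors bind, was at 0.318, 0.361 and 0.629 TPM in untreated and 5.23, 4.29, 3.53 and 3.09 TPM in treated H146 (log2 1.80 ± 0.20, adjusted p = 0.000285), with the groups apart. In H82 it went the other way, at 1.35, 0.650 and 0.738 TPM untreated and 0.0561, 0.326 and 0.120 TPM treated, below the filter and with non-overlapping groups (exact permutation test, p = 0.1, the smallest that 3 against 3 libraries allow). *NTN4* did not pass in H146 and was below the filter in H82, where it was at 0.322 to 0.623 TPM untreated and 0.717 to 1.29 TPM treated.

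Netrin receptors changed in opposite ways in H146. *UNC5B*, a receptor for repulsion that is also known from blood vessels, had 88.2 to 89.8% of the summed receptor level in untreated H146. It fell from 204, 261 and 183 to 29.1, 33.4, 6.76 and 5.75 TPM (log2 −3.81 ± 0.58, adjusted p = 0.00123), an 11.5-fold drop of the mean. The treated libraries formed 2 pairs, replicates 1 and 2 at 29.1 and 33.4 TPM and replicates 3 and 4 at 6.76 and 5.75 TPM, all below the lowest untreated library. In H82 *UNC5B* was at 2.33, 2.05 and 1.82 TPM untreated and 3.09, 5.80 and 2.91 TPM treated and did not pass (adjusted p = 0.0737), although it passed as higher with the median of ratios (adjusted p = 0.0170).

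*DCC*, the receptor through which netrin attracts axons, rose in H146 from 7.81, 7.52 and 4.66 to 25.0, 26.4, 24.4 and 24.9 TPM (log2 1.80 ± 0.18, adjusted p = 0.000151), and its share of the receptor sum went from 2.28 to 3.37% to 32.9 to 51.0%. In H82 it was at 1.56, 1.14 and 1.17 TPM untreated and 0.0999, 0.770 and 0.194 TPM treated (log2 −0.78 ± 0.24, adjusted p = 0.0257), a call lost with the median of ratios (log2 −0.59, adjusted p = 0.0771) and without treated replicate 1 or 3 (adjusted p = 0.0601 and 0.0824), with the direction turned by quantile normalization (log2 0.37). *NEO1*, which encodes neogenin, a close relative of DCC, rose in H146 from 2.27, 2.39 and 1.64 to 4.05, 5.05, 4.48 and 4.71 TPM (log2 0.85 ± 0.17, adjusted p = 0.00412). It was the most abundant netrin receptor of H82, at 85.1, 85.6 and 83.9 TPM untreated and 44.6, 60.8 and 74.7 TPM treated, which did not pass (adjusted p = 0.0558).

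*UNC5C* rose in H82 from 1.53, 1.89 and 1.42 to 2.02, 4.71 and 7.05 TPM (log2 0.99 ± 0.36, adjusted p = 0.0498), with the groups apart and the value just inside the threshold. Without any of the untreated libraries or treated replicate 2 or 3 it did not pass (adjusted p = 0.105 to 0.137). Nor did it pass with a pseudocount of 0.1, no filter or a mean TPM of at least 1 (adjusted p = 0.0549, 0.103 and 0.0544). *UNC5A* was at 13.3 to 19.9 TPM in H146 and did not pass (adjusted p = 0.333), but passed as lower with the median of ratios (adjusted p = 0.0261) and with quantile normalization (adjusted p = 0.0373). In H82, where it was below the filter, it was at 0.396, 0.357 and 0.376 TPM untreated and 2.41, 6.21 and 0.205 TPM treated. *UNC5D* did not exceed 0.284 TPM in either line. The summed level of the 6 receptors was 3.80-fold lower in treated H146 (4.69-fold with the median of ratios). In H82 it was 1.26-fold lower, and that direction turned with the median of ratios (1.11-fold higher).

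Secreted class 3 semaphorins, which repel axons through neuropilin and plexin receptors, moved in both directions in H82. *SEMA3F* had the largest fall of any member in H82, from 69.5, 60.8 and 67.9 to 3.14, 1.93 and 2.80 TPM (log2 −4.22 ± 0.18, adjusted p = 5.75e-05), a 25.2-fold drop of the mean. In H146 it fell from 23.8, 35.3 and 23.7 to 6.12, 7.94, 2.60 and 2.90 TPM (log2 −2.36 ± 0.34, adjusted p = 0.000903), a 5.64-fold drop. The groups were apart in both lines. Its share of the semaphorin ligand sum went from 41.4 to 46.8% to 2.39 to 3.66% in H82 and from 50.1 to 58.7% to 5.05 to 18.9% in H146.

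*SEMA3C* rose in H82 from 8.38, 9.23 and 8.26 to 57.5, 42.1 and 45.8 TPM (log2 2.35 ± 0.17, adjusted p = 0.000139), and went from 5.59 to 6.27% of the ligand sum to 52.3 to 66.8%. *SEMA3A*, the classic growth cone collapsing factor, rose as well (log2 1.30 ± 0.19, adjusted p = 0.00133), from 2.29 to 2.99 TPM up to 7.13 to 8.81 TPM. In H146 both were below the filter, at no more than 0.438 TPM. *SEMA3E*, which binds plexin D1 directly, did not pass in H146 and was at no more than 0.227 TPM in H82.

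The membrane-spanning semaphorins also differed between the lines. *SEMA6A*, a ligand of the class A plexins, rose in H146 from 1.87, 2.34 and 1.52 to 14.8, 13.3, 17.4 and 17.1 TPM (log2 2.52 ± 0.17, adjusted p = 2.43e-05), with the groups apart. In H82 it was at 3.26, 4.64 and 4.02 TPM untreated and 4.61, 8.93 and 5.91 TPM treated and did not pass (adjusted p = 0.106), although it passed as higher with the median of ratios (adjusted p = 0.0159) and with quantile normalization (adjusted p = 0.00419). *SEMA6D*, a ligand of plexin A1, fell in H82 from 50.7, 53.0 and 50.2 to 8.63, 13.2 and 15.3 TPM (log2 −2.0 ± 0.21, adjusted p = 0.000415). In H146 it rose from 5.82, 6.89 and 4.13 to 9.33, 8.20, 12.1 and 10.5 TPM (log2 0.75 ± 0.20, adjusted p = 0.015), a call lost without untreated replicate 3 (adjusted p = 0.0585). The groups were apart in both lines.

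*SEMA5A*, a transmembrane semaphorin with thrombospondin repeats, fell in H82 (log2 −1.92 ± 0.18, adjusted p = 0.000305) from 3.49 to 3.77 TPM to no more than 0.375 TPM. In H146 it was below the filter, at up to 0.798 TPM in the treated libraries. *SEMA4D*, a ligand of plexin B1, fell in H82 (log2 −0.86 ± 0.20, adjusted p = 0.00885), a call lost with the median of ratios (adjusted p = 0.0907) and with quantile normalization (adjusted p = 0.499), and did not pass in H146 (log2 −0.01 ± 0.15). The summed level of the 8 ligands was 148, 147 and 148 TPM in untreated and 86.0, 80.5 and 85.8 TPM in treated H82, or 1.76-fold lower (1.25-fold with the median of ratios), and the groups overlapped in H146, where the sum was lower without overlap after the median of ratios (1.32-fold).

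Of the semaphorin receptors, *PLXNA1* encodes a plexin that pairs with neuropilins and also binds class 6 semaphorins. It fell in H82 from 74.6, 57.1 and 71.0 to 7.57, 17.1 and 23 TPM (log2 −2.14 ± 0.37, adjusted p = 0.00251). In H146 it rose from 34.9, 36.8 and 27.1 to 69.8, 47.0, 131 and 116 TPM (log2 1.34 ± 0.33, adjusted p = 0.011), a call lost without untreated replicate 3 (adjusted p = 0.0550), and treated replicates 3 and 4 were above replicates 1 and 2. The groups were apart in both lines.

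*PLXNA2*, another class A plexin, fell in H82 from 5.50, 5.17 and 5.14 to 0.572, 2.12 and 2.24 TPM (log2 −1.32 ± 0.31, adjusted p = 0.00938) and in H146 from 21.2, 22.2 and 15.5 to 7.65, 8.69, 7.49 and 7.45 TPM (log2 −1.21 ± 0.16, adjusted p = 0.000638), and the responses did not differ past the threshold (difference −0.11 ± 0.34, adjusted p = 0.804). The sign of that difference turned with the median of ratios (0.53, adjusted p = 0.194) and with quantile normalization (0.94, adjusted p = 0.0569). *PLXNB1*, the receptor of semaphorin 4D, fell in H82 from 25.1, 22 and 22.8 to 6.76, 8.31 and 9.11 TPM (log2 −1.43 ± 0.17, adjusted p = 0.000559). Its level in H146 was 38.2, 40.9 and 31.4 TPM untreated and 49.2, 44.6, 53.4 and 43.4 TPM treated, which did not pass (adjusted p = 0.0523).

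The neuropilin *NRP1* rose in H146 (log2 0.87 ± 0.16, adjusted p = 0.00301), from 1.80 to 2.12 TPM up to 3.88 to 5.15 TPM, and was at no more than 0.530 TPM in H82. *NRP2* did not pass in either line. In treated H146 it was at 25.0 and 33.3 TPM in replicates 1 and 2 and at 10.8 and 10.1 TPM in replicates 3 and 4, the same pairs as for *UNC5B*. *PLXNC1* was at 2.92 to 4.07 TPM in untreated H82 and, treated, at 0.495 and 0.697 TPM in replicates 1 and 3 and at 3.40 TPM in replicate 2. It did not pass with all libraries (adjusted p = 0.0794) and passed as lower without treated replicate 2 (adjusted p = 0.0042). *PLXNA4* was below the filter in both lines, at no more than 0.513 TPM.

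**Figure D3:**
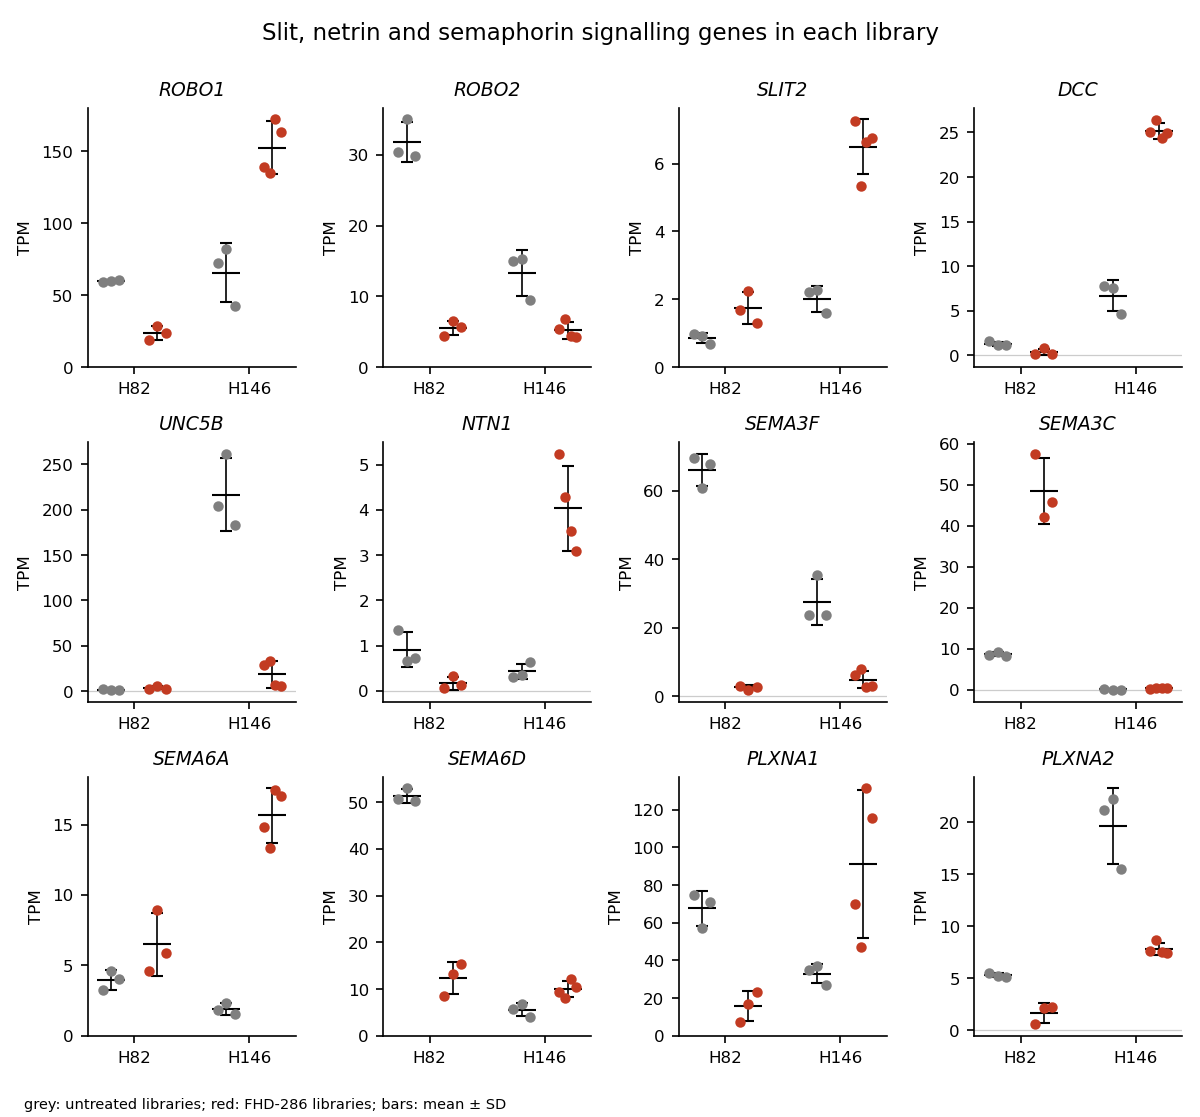
TPM (y axis) of 12 Slit, netrin and semaphorin signalling genes in every untreated (grey) and FHD-286 (red) library of H82 and H146 (x axis), with the mean and SD as bars. *SEMA3F*, *ROBO2* and *PLXNA2* are lower in the treated libraries of both lines, while *ROBO1*, *DCC*, *SEMA6D* and *PLXNA1* are lower in treated H82 and higher in treated H146.

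**Figure D4:**
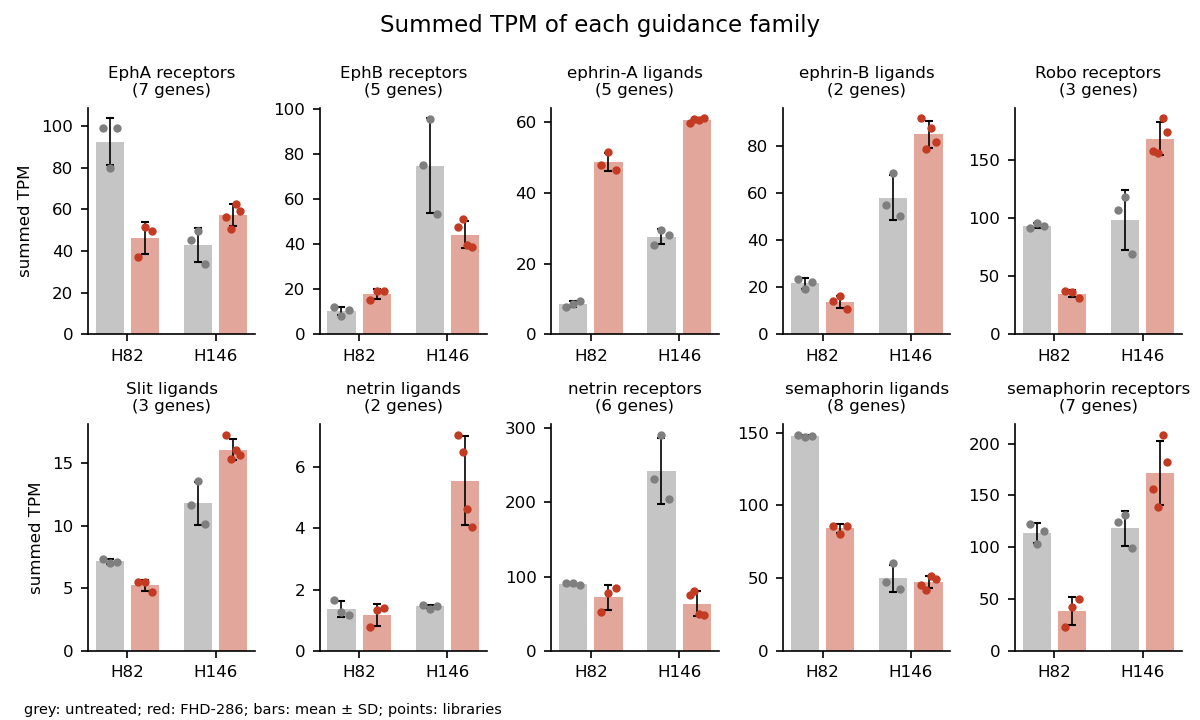
Summed TPM (y axis) of each of the 10 guidance families in untreated (grey) and FHD-286 (red) libraries of H82 and H146 (x axis), with bars at the mean, SD as error bars and a point per library. The ephrin-A sum is higher after treatment in both lines, and the netrin receptor sum of H146 falls from 204 to 291 TPM to 48.9 to 80.3 TPM.

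The members below the filter could only be tested singly. In H82, none of the 13 could fall under an exact p of 0.1. In H146, *EPHB6*, *UNC5C* and *SEMA3C* reached the smallest p that 3 against 4 libraries allow (two-sided exact permutation test, p = 0.0286, not adjusted), all 3 with higher values in the treated libraries. Their treated levels were at most 0.248, 0.185 and 0.342 TPM, near the limit of what TPM values without read counts can support.

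The responses of the 2 lines were compared directly in a single fit of all 13 libraries, for the 30 members that passed the filter in both. The difference, H82 log2 fold change minus that of H146, was above 0 past the threshold for 6 and below 0 for 19. These were 20.0% and 63.3% of the members, beside 13.3% and 45.0% of the 15679 genes tested, whose median difference was −0.65. With the median of ratios the counts were 7 and 11 (23.3% and 36.7%), beside 30.0% and 25.1% of all genes. Levels set side by side between the lines come from separate tables and were not tested against each other.

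The 5 members with the smallest adjusted p were *EFNA2* (difference −3.38 ± 0.32, adjusted p = 4.8e-06), *SEMA6D* (−2.75 ± 0.30, 1.28e-05), *PLXNB1* (−1.80 ± 0.21, 1.88e-05), *ROBO1* (−2.58 ± 0.30, 2.02e-05) and *DCC* (−2.59 ± 0.30, 2.05e-05). All 5 stayed past the threshold with the median of ratios. The largest difference of the other sign was that of *UNC5B*, 4.46 ± 0.73 (adjusted p = 0.000229). *EFNA3*, *EFNA4* and *EFNA5*, which rose in both lines, rose more in H82, by 1.43 ± 0.28, 2.37 ± 0.30 and 1.32 ± 0.31 (adjusted p = 0.000857, 3.96e-05 and 0.00277). In H82, *EFNA3* and *EFNA4* passed the filter only through the treated libraries, and *EFNA2* and *DCC* only through the untreated ones. The differences of these genes could not be tested when any of those libraries was left out. *ROBO2* and *SEMA3F*, which fell in both, fell further in H82, by differences of −1.15 ± 0.29 and −1.86 ± 0.43 (adjusted p = 0.00485 and 0.00238), the former not past the threshold with the median of ratios (adjusted p = 0.224).

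The families hold 25 other members that were not among the 48. In H82 17 of them were tested, with 1 higher and 7 lower (5.88% and 41.2%, beside 13.1% and 45.5% of all genes), and in H146 21, with 9 higher and 4 lower (42.9% and 19.0%, beside 32.5% and 15.5%). The shares with the median of ratios were 17.6% and 17.6% in H82, beside 24.2% and 32.9% of all genes, and 28.6% and 23.8% in H146, beside 21.3% and 25.1%. In H82 *SEMA6B*, a membrane semaphorin that passed the filter only through the treated libraries and could not be tested when any of them was left out, was the 1 called higher, from 0.782, 0.764 and 0.650 to 10.0, 8.87 and 11.4 TPM (log2 2.67 ± 0.19, adjusted p = 0.000139), and *NTNG2*, a membrane-anchored netrin, had the largest fall, from 38.8, 32.9 and 39.6 to 4.17, 2.10 and 1.90 TPM (log2 −3.40 ± 0.25, adjusted p = 0.000155). In H146 the largest rise was that of *SEMA6C*, from 9.44, 11.5 and 10.3 to 53.4, 49.3, 37.8 and 31.9 TPM (log2 1.93 ± 0.19, adjusted p = 0.000162), and the largest fall that of *PLXNA3*, a class A plexin, from 52.0, 47.9 and 41.7 to 26.2, 31.7, 25.8 and 21.0 TPM (log2 −0.84 ± 0.16, adjusted p = 0.00331).

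A further list held 32 mediators that act inside the cell or trim the receptors. In H82 26 were tested, with 2 higher and 17 lower (7.69% and 65.4%, beside 13.1% and 45.5% of all genes), and in H146 30, with 8 higher and 10 lower (26.7% and 33.3%, beside 32.5% and 15.5%). After the median of ratios the shares were 15.4% and 34.6% in H82, beside 24.2% and 32.9%, and 13.3% and 40.0% in H146, beside 21.3% and 25.1%. *GAP43*, a growth cone protein that passed the filter only through the treated libraries and could not be tested when any of them was left out, had the largest rise in H82, from 0.276, 0 and 0 to 2.35, 2.39 and 1.77 TPM (log2 1.54 ± 0.20, adjusted p = 0.000849), and *CHN2*, a Rac-inactivating chimaerin, the largest fall, from 17.4, 15.2 and 16.4 to 1.96, 2.19 and 2.44 TPM (log2 −2.44 ± 0.17, adjusted p = 0.000139). In H146 *DPYSL3*, which encodes a collapsin response mediator protein, rose most, from 143, 161 and 113 to 876, 971, 787 and 818 TPM (log2 2.64 ± 0.15, adjusted p = 9.74e-06). *MICAL2*, an actin-oxidising enzyme of the family that acts after plexins, fell most there, from 36.4, 38.9 and 23.6 to 7.69, 8.58, 5.69 and 5.44 TPM (log2 −2.10 ± 0.22, adjusted p = 0.000219).

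Markers of other cell types were read beside these results. The 10 epithelial markers summed to 3050 to 3260 TPM in untreated and 1032 to 1157 TPM in treated H146, and to 6.94 to 9.40 TPM in untreated and 13.9 to 175 TPM in treated H82. The 10 fibroblast markers summed to 3.16 to 3.57 TPM in untreated and 15.7 to 36.3 TPM in treated H82, and to 47.4 to 69.3 and 48.1 to 59.9 TPM in H146. The 10 neuroendocrine markers summed to 1458 to 1531 and 1138 to 1603 TPM in H82 and to 5177 to 5696 and 3412 to 4616 TPM in H146. In H82, 3 of the 10 were higher and 5 lower, beside 13.1% and 45.5% of all genes. Their median log2 fold change was −1.52 there, against −0.56 over all genes. In H146, 1 of the 9 tested was higher and 3 lower, beside 32.5% and 15.5%, with a median of −0.15 against 0.25. With the median of ratios the counts were 4 and 5 in H82 (24.2% and 32.9% of all genes) and 1 and 4 in H146 (21.3% and 25.1%). The 8 endothelial markers summed to 3.0 to 3.51 TPM in untreated and 12 to 22.8 TPM in treated H82, and to 50.5 to 58.8 and 33.7 to 43.1 TPM in H146. The 10 immune markers summed to 3.55 to 8.98 and 2.49 to 4.74 TPM in H82, and to 8.10 to 10.9 and 11.5 to 24.4 TPM in H146. The part of these markers in the guidance gene results was not tested.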

How the data were processed

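RNA-seq libraries of H82 and H146 were made and sequenced by a commercial provider. The deposited values are TPM for 56831 genes in 1 table per line. The authors trimmed reads (Trim Galore 0.4.4 is among the tools of the submitters' processing notes), aligned them to hg38 with STAR, counted them per gene with GENCODE v28 and compared groups with DESeq2. How the TPM were computed and which strand setting was used is not given in the sources used here. Read depth is not kept in TPM, so precision is set by the number of libraries. Groups and replicate numbers were taken from the sample titles. Nothing says that replicates came from separate cultures, so p-values measure only the spread between these libraries, which may be technical.

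Genes reaching 1 TPM in 3 or more libraries of a line were fitted with limma 3.58.1 (R 4.3.3, lmFit and eBayes with trend, two-sided) on log2(TPM + 1). P-values were adjusted by Benjamini and Hochberg's method across every tested gene, and 0.05 was the threshold. Responses of H82 and H146 were set against each other by an interaction contrast over 13 libraries. The count test used by the study could not be run on TPM. Members below the filter were given an exact permutation test, unadjusted. The 48 genes and the other lists were chosen with earlier results of these data known. Given in full are, per family and line, the 2 called members with the largest absolute log2 fold change and no overlap, members called in both lines, and the 5 with the smallest adjusted p for the difference between the lines; from each other list the largest rise and fall per line. Alternatives were a pseudocount of 0.1, no filter, a mean TPM of at least 1, median of ratios, quantile normalization, a replicate block, no trend, library weights and leaving out each library. Coordinates come from GENCODE v44 and promoter windows from RefSeq, both on GRCh38. Scripts ran in Python 3.11.15 with matplotlib 3.10.9, scipy 1.17.1, pandas 2.3.3 and numpy 2.4.6.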

Additional observations from a re-analysis of the deposited data

Results flagged for a closer look

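The response differed between H82 and H146, by the interaction contrast with adjusted p under the threshold, for 25 of the 30 members tested in both lines. The difference was above 0 for 20.0% and below 0 for 63.3% of the members, beside 13.3% and 45.0% of all genes tested. The median difference over all of those genes was −0.65. Values are the log2 fold change of H82 minus that of H146. Among receptors of the Eph family the differences were −1.42 for *EPHA4*, −1.56 for *EPHA8*, −1.44 for *EPHA10* and −1.34 for *EPHB3*. Among ephrin ligands they were 1.39 for *EFNA1*, −3.38 for *EFNA2*, 1.43 for *EFNA3*, 2.37 for *EFNA4*, 1.32 for *EFNA5*, −1.60 for *EFNB2* and −0.77 for *EFNB3*. In the Slit and Robo families they were −2.58 for *ROBO1*, −1.15 for *ROBO2*, 1.95 for *ROBO3*, −0.68 for *SLIT1* and −0.76 for *SLIT2*. Among netrin receptors they were −2.59 for *DCC*, −1.38 for *NEO1* and 4.46 for *UNC5B*. In the semaphorin families they were −1.86 for *SEMA3F*, −0.85 for *SEMA4D*, −1.96 for *SEMA6A*, −2.75 for *SEMA6D*, −3.47 for *PLXNA1* and −1.80 for *PLXNB1*. With the median of ratios *EPHA4*, *EPHA10*, *EPHB3*, *EFNB3*, *ROBO2*, *SLIT1*, *SLIT2* and *SEMA4D* no longer passed, and *EPHA7* passed as higher in H82 relative to H146 (1.24, adjusted p = 0.00449). The call for *ROBO3* was lost without untreated replicate 2 of either line (adjusted p = 0.0625 and 0.0532), and that for *SLIT2* without untreated replicate 1 or 2 of H82 or untreated replicate 3 or treated replicate 1 of H146 (adjusted p = 0.0509 to 0.0718). *EFNA3*, *EFNA4* and *SLIT2* in H82 and *EPHA4* in H146 passed the filter only through the treated libraries. *EFNA2* and *DCC* in H82 passed it only through the untreated libraries.

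In the 4 treated H146 libraries, *PLXNA2* had 1 library apart from the other 3, replicate 2 at 8.69 TPM against 7.45 to 7.65 TPM, with a gap of 0.837 of the group's range, above Dixon's 95% critical value for 4 samples. This was 1 of 48 groups examined in this way, and chance marks about 1 in 20. Groups of 3 libraries were not examined.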

How the results depend on the processing

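Over 1662 refits of single members under the alternatives, 1521 kept their call or stayed without one, 86 lost the call and 47 gained one. A further 8 changed direction with a call in either fit. The 1521 include 39 whose sign changed while past the threshold in neither fit. Called members that passed under every alternative that could test them numbered 14 of 23 in H82, 19 of 26 in H146 and 16 of 25 for the difference between the lines. Of the 35 members tested in H82, 10 were lower and 11 higher with the median of ratios, and 9 lower and 15 higher with quantile normalization. Of all 19770 genes tested there, 6499 were lower and 4793 higher with the median of ratios, and 4859 and 5256 with quantile normalization. For the difference between the lines, 11 of 30 members were below 0 with the median of ratios and 11 with quantile normalization, and 10 of 48 were above 0 without a filter on low values. Of all 15679 genes tested between the lines, 3939 and 3947 were below 0 with these scalings. Without the filter, 3217 of 34106 genes were above 0. Quantile normalization turned *EPHB3* (0.042), *SLIT1* (0.22) and *DCC* (0.37) in H82, and *SLIT1* (0.40), *SLIT2* (0.32) and *SEMA4D* (0.091) between the lines, and the median of ratios turned *EFNB3* (0.0025) and *SLIT1* (0.0118) between the lines. Members that did not pass in H82 by either other scaling but passed with quantile normalization were *EPHA2*, *EPHA7*, *EFNB2* and *ROBO3* as higher and *NEO1* as lower. The cause was not tested. Leaving out each library gave 15 to 23 changed members in H82 (9 to 17 lower, 4 to 6 higher), 21 to 28 in H146 (5 to 9 lower, 15 to 19 higher) and 21 to 25 between the lines (16 to 19 below and 4 to 6 above 0), and with 2 libraries left in a group fewer genes pass the filter. Over all genes, these fits gave 4291 to 9957 lower and 1676 to 3503 higher in H82, of 16364 to 19237 tested. In H146 they gave 1812 to 3729 lower and 4287 to 7480 higher, of 18859 to 19053. Between the lines, 5768 to 7191 were below 0 and 1767 to 2297 above 0, of 14641 to 15513. Library weights gave 28 changed members in H82 and 33 in H146. With these weights, 10478 genes were lower and 3975 higher of all 19770 tested in H82, and 4806 and 9151 of 19585 in H146. Same-numbered libraries did not deviate together (correlation −0.11 to 0.03), so the numbers were not taken as pairs, and the replicate block gave 24 changed members in H82, 23 in H146 and 23 between the lines. Over all genes it gave 8625 lower and 2333 higher of 19770 in H82, and 2377 and 4749 of 19585 in H146. Between the lines it gave 6421 below 0 and 1844 above 0 of 15679. The block lost the calls of *DCC* in H82 (adjusted p = 0.0517) and of *EFNA1*, *EPHB2* and *SEMA6D* in H146 (adjusted p = 0.0972, 0.154 and 0.0711), and those of *SLIT1* and *SLIT2* between the lines. Low genes rest on TPM whose read depth is unknown.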

Other observations

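Shares within a family do not change when a library is scaled by a single factor, as with the median of ratios, and several moved the same way in both lines. Quantile normalization is not such a scaling, and shares were not computed after it. *SLIT2* went from 9.74 to 13.4% of the Slit sum in untreated H82 to 27.6 to 41.2% in treated H82, and from 15.6 to 19.0% to 34.8 to 43.1% in H146. *SLIT1* went from 82.8 to 86.2% to 55.1 to 68.5% in H82 and from 80.5 to 84.1% to 56.2 to 64.8% in H146. These 2 genes made up most of the Slit sum, so their shares mirror each other. The level of *SLIT1* itself did not pass in H146 (log2 −0.03 ± 0.15). *ROBO2* went from 32.2 to 36.6% of the Robo sum to 12 to 17.9% in H82, and from 12.9 to 14.1% to 2.34 to 4.41% in H146. *EFNB2* went from 6.36 to 9.06% of the ephrin-B sum to 14.4 to 15.6% in H82, and *EPHB4* from 1.84 to 3.86% of the EphB sum to 10.5 to 15.7% in H146. None of these ranges overlapped, and the shares were not tested.

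H82 treated replicate 2, whose 10 epithelial markers summed to 175 TPM against 29.4 and 13.9 TPM in the other treated H82 libraries, held the highest of the 6 H82 values for 11 of the 48 members. Treated replicates 1 and 3 held it for 7 and 6 members, and each untreated library for 8. The 11 were *EFNA5*, *EFNB2*, *EPHA5*, *EPHA7*, *EPHB1*, *EPHB2*, *NRP1*, *SEMA6A*, *SLIT2*, *UNC5A* and *UNC5B*. Among them *UNC5A* was at 6.21 TPM there, against 2.41 and 0.205 TPM in treated replicates 1 and 3. This library was singled out after its values were seen, and the part of its epithelial markers in these values was not tested.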
